A study of Mus musculus with 6 samples.

Results

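The 10 neutrophil genes followed here were measured in sorted mouse bone marrow cells with endogenous or overexpressed microRNA-125a (miR-125a). The genes were taken by symbol, mapped to gene identifiers through GENCODE vM21, and are 10 of the 55450 gene rows of the count table. Mpo, Elane, Prtn3 and Ctsg encode primary granule proteins, Ltf, Ngp, Camp and Lcn2 secondary granule proteins, and S100a8 and S100a9 the 2 chains of calprotectin. Their identifiers in the table are ENSMUSG00000009350.13 (Mpo), ENSMUSG00000020125.7 (Elane), ENSMUSG00000057729.12 (Prtn3), ENSMUSG00000040314.2 (Ctsg), ENSMUSG00000032496.7 (Ltf), ENSMUSG00000032484.8 (Ngp), ENSMUSG00000038357.10 (Camp), ENSMUSG00000026822.14 (Lcn2), ENSMUSG00000056054.9 (S100a8) and ENSMUSG00000056071.12 (S100a9). MiR-125a was overexpressed in LSK/SLAM stem cells, which were given to lethally irradiated recipients, and RNA was sequenced 12 weeks later from 2000 lineage-negative, Sca-1-positive (lineage-Sca+) marrow cells per library, strain C57BL6/SJL. Cells of both groups came from transplanted marrow sorted the same way, and by label differed only in miR-125a, endogenous or overexpressed. The labels name 3 libraries per group, of which 2 of each are analysed here: replicates 1 and 3 with endogenous and replicates 2 and 3 with overexpressed miR-125a. The sources used here give neither the vector and its promoter nor the recipient of each library. The p-values therefore rest on a spread that could be technical.

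Neutrophils build their granules in order while they mature in the marrow. Promyelocytes make the primary (azurophil) granules, which carry myeloperoxidase and serine proteases, and myelocytes and metamyelocytes then make the secondary (specific) granules with lactoferrin, cathelicidin and lipocalin. S100a8 and S100a9 are cytosolic calcium-binding proteins that accumulate to high levels in late precursors and mature neutrophils. A lineage-negative, Sca-1-positive sort is meant to hold stem cells and early progenitors, before most of this programme, since cells with the granulocyte antigens of the lineage cocktail are removed.

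The sequence of the overexpressed microRNA is shown because its seed, bases 2 to 8 in capitals, defines the sites searched for in the 10 genes. It is credited to RefSeq, build GRCm38.p6, chromosome 17, 17830817 to 17830840.
mmu-miR-125a-5p: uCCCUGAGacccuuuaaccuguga
Sites complementary to the seed (CTCAGGG, or TCAGGGA with an A opposite the first base) were sought in the longest 3' UTR of protein-coding transcripts of each member. None of the 10 had either site, on 3' UTRs of 56 to 603 bases. Of 21045 genes with a 3' UTR, 19.5% had at least 1 such site, and the median 3' UTR was longer, at 960 bases. The absence of these letters says nothing about other kinds of site.

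The promoters of Ltf, Ngp and Camp are shown because these secondary granule genes lie near each other on chromosome 9, while Ngp and Camp had alike counts across the libraries and Ltf did not. Each runs from 250 bases before to 50 after the start site, 5′ to 3′ on the strand of the gene, from RefSeq on build GRCm38.p6, and capitals mark matches to TTNNGCAA on either strand, the core of a C/EBP site.
Ltf promoter, chr9:111019042-111019341, plus strand: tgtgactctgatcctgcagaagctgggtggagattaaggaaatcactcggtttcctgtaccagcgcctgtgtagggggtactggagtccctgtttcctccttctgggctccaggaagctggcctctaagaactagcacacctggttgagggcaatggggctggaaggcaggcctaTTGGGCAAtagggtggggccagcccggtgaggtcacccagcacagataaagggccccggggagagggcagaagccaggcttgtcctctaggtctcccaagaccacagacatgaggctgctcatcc
Ngp promoter, chr9:110419558-110419857, plus strand: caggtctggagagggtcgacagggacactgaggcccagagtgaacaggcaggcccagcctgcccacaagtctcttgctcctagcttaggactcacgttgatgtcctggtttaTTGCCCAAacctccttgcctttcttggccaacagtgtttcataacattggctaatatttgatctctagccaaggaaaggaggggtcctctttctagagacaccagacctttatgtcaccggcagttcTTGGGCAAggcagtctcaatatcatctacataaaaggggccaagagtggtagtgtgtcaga
Camp promoter, chr9:109849407-109849706, minus strand: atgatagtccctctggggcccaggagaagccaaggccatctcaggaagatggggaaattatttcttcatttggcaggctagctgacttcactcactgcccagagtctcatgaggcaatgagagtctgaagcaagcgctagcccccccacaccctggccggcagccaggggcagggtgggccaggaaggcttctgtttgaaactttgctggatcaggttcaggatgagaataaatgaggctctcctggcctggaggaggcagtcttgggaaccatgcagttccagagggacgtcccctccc
The match in the Ltf promoter began at base -75 from the start site and those in the Ngp promoter at -138 and -11, and Camp had no match in this window. All 10 members had a promoter entry. TTNNGCAA was found in 4 of them (Ltf, Ngp, Lcn2 and S100a9), against 10.8% of 32851 promoter entries of the same length. GAGGAA, a core of the PU.1 site searched on both strands, was found in 7, against 28.3%, and no match to one motif overlapped a match to the other. A match is a string of letters and not a measured binding site.

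The row of the overexpressed gene, Mir125a, held 0, 0, 0 and 1 counts in endogenous replicates 1 and 3 and overexpressed replicates 2 and 3, an order kept for every set of 4 values below. Its host gene Spaca6 held 1, 1, 2 and 2, so these few counts do not check the label. Total counts ran from 654126 to 737431 per library. Mitochondrially encoded genes took 4.14% and 4.22% of counts in endogenous replicates 1 and 3 and 6.29% in overexpressed replicate 2, but 0.558% in overexpressed replicate 3, which also had the lowest share of ribosomal protein counts, 0.195% against 0.357% to 0.526%. Ly6a, which encodes the Sca-1 of the sort, had 1, 0, 1 and 1 counts. The stem cell factor receptor Kit had 4, 25, 9 and 5. Of lineage genes, the granulocyte antigen Ly6g had 5, 4, 2 and 3 counts and the myeloid integrin Itgam 3, 5, 0 and 2. The marker of the sort was thus at or near 0 in all 4 libraries.

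**Figure D1:**
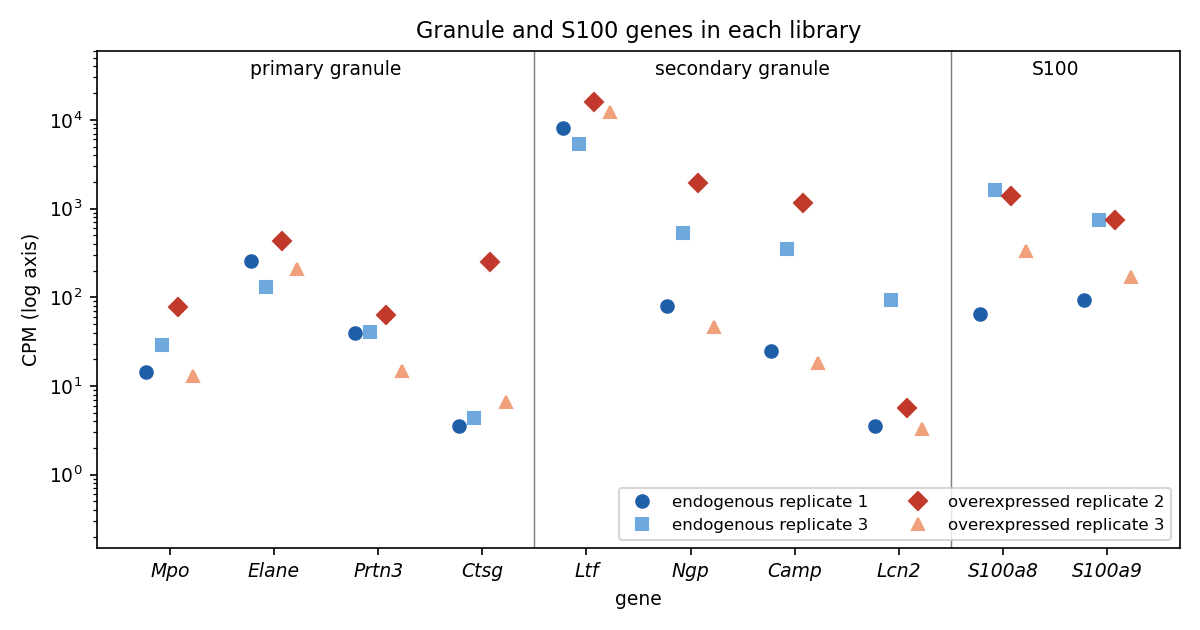
CPM (counts scaled by the effective library size, log axis) of each member in the 4 analysed libraries, with 1 symbol per library. Ltf stood highest in every library, and Ctsg, Ngp, Camp, Lcn2 and both S100 genes spread over more than 8-fold within at least 1 group.

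Among the primary granule genes, Elane had the most counts and the 2 groups overlapped. Elane (neutrophil elastase, chromosome 10, 79886247 to 79888215) had 145 and 91 counts in the endogenous and 231 and 127 in the overexpressed libraries. In CPM, counts scaled by the effective library size, these were 258, 131, 431 and 208. The fitted log2 fold, overexpressed over endogenous, was 0.71 ± 0.78 (SE, n = 2 per group; edgeR's quasi-likelihood F test, Benjamini-Hochberg adjusted p = 0.953). Each group held 1 library at about the same level and overexpressed replicate 2 was the highest. Prtn3, proteinase 3, lies beside Elane at 79874476 to 79883174 and had 22 and 28 against 34 and 9 counts, with a log2 fold of -0.04 ± 0.70 (edgeR adjusted p = 0.997) that was 0.67 without overexpressed replicate 3. Its exons overlap those of Plppr3 on the other strand, and with the counter's use of strand not given, the reads of the 2 genes cannot be told apart.

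Mpo, which encodes the enzyme that makes hypochlorous acid in the primary granule (chromosome 11, 87793581 to 87804413), had few counts, 8 and 20 in the endogenous and 42 and 8 in the overexpressed libraries. Its log2 fold was 1.05 ± 0.86 (edgeR adjusted p = 0.908), and its exons overlap the antisense gene Gm11505. The lower overexpressed library matched the lower endogenous library, and without overexpressed replicate 2 the log2 folds of Mpo and Prtn3 were -0.74 and -1.42. Ctsg, the serine protease cathepsin G (chromosome 14, 56099881 to 56102574), had 2, 3, 134 and 4 counts. Nearly all of them came from overexpressed replicate 2, and the gene did not pass the filter on low counts. All 4 primary granule genes had their highest CPM in overexpressed replicate 2, while the summed CPM of the list was 315 and 204 against 823 and 242, with overexpressed replicate 3 between the endogenous libraries.

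Ltf, lactoferrin, the iron-binding protein of the secondary granule (chromosome 9, 111019271 to 111042767), had by far the most counts of the members, not scaled by gene length. It had 4538 and 3735 counts in the endogenous and 8490 and 7413 in the overexpressed libraries, which placed it 12th and 11th, and 9th and 8th, of all rows. It took 0.694% and 0.524% of the endogenous and 1.15% and 1.04% of the overexpressed counts. Both overexpressed libraries were above both endogenous libraries, at 8087 and 5379 against 15841 and 12143 CPM (6733 ± 1915 against 13992 ± 2615, SD, n = 2 per group). The log2 fold was 1.06 ± 0.68 and did not pass the test (edgeR quasi-likelihood, unadjusted p = 0.17, adjusted p = 0.864). Leaving out 1 library gave 0.79 to 1.41.

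Ngp and Camp, which both encode proteins of the cathelicidin family, went together and not with Ltf. Ngp, neutrophilic granule protein (chromosome 9, 110419747 to 110423012), had 45 and 364 counts in the endogenous and 1042 and 28 in the overexpressed libraries. Camp, the precursor of the antimicrobial peptide CRAMP (109847379 to 109849617), had 14 and 241 against 617 and 11. Endogenous replicate 3 and overexpressed replicate 2 were thus high and the others low for both genes, across the groups. Within the overexpressed group the higher CPM was 42.4 times the lower for Ngp and 63.9 times for Camp, and within the endogenous group 6.54 and 13.9 times. The log2 folds were 1.72 ± 1.68 for Ngp and 1.65 ± 1.87 for Camp (edgeR adjusted p = 0.933 and 0.956). Without overexpressed replicate 2 they were -2.72 and -3.36, and without endogenous replicate 3 they were 3.63 and 4.54, so 1 library set the direction.

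Lcn2, lipocalin 2, which binds bacterial siderophores (chromosome 2, 32384633 to 32388252), had 2 and 65 counts against 3 and 2. Only endogenous replicate 3 had more than 3 counts, and the gene did not pass the filter. The 4 secondary granule genes summed to 8196 and 6343 against 18943 and 12211 CPM, with the overexpressed libraries higher. Without Ltf the other 3 summed to 109 and 965 against 3101 and 67.2 CPM, and the groups overlapped, with overexpressed replicate 3 the lowest of the 4 libraries. In these bulk samples fewer cells that express a gene and less RNA per cell cannot be told apart.

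S100a8 and S100a9 encode the chains that pair as calprotectin and lie on chromosome 3 at 90668978 to 90670035 and 90692632 to 90695721. S100a8 had 36 and 1130 counts in the endogenous and 739 and 205 in the overexpressed libraries, and S100a9 had 52 and 520 against 401 and 102. Endogenous replicate 1 was the lowest and endogenous replicate 3 the highest for both (S100a9 at 749 CPM there and 748 in overexpressed replicate 2), so both overexpressed libraries lay within the endogenous range. The log2 folds were 0.02 ± 1.45 for S100a8 and 0.12 ± 1.21 for S100a9 (edgeR adjusted p = 0.998 and 0.996). Without endogenous replicate 1 they were -0.89 and -0.68, without overexpressed replicate 2 -1.33 and -1.33, and without endogenous replicate 3 they were 3.74 and 2.30. Per kb of exon, S100a8 stood at 0.521, 1.63, 1.39 and 1.51 times S100a9, with endogenous replicate 1 apart from the other 3.

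**Figure D2:**
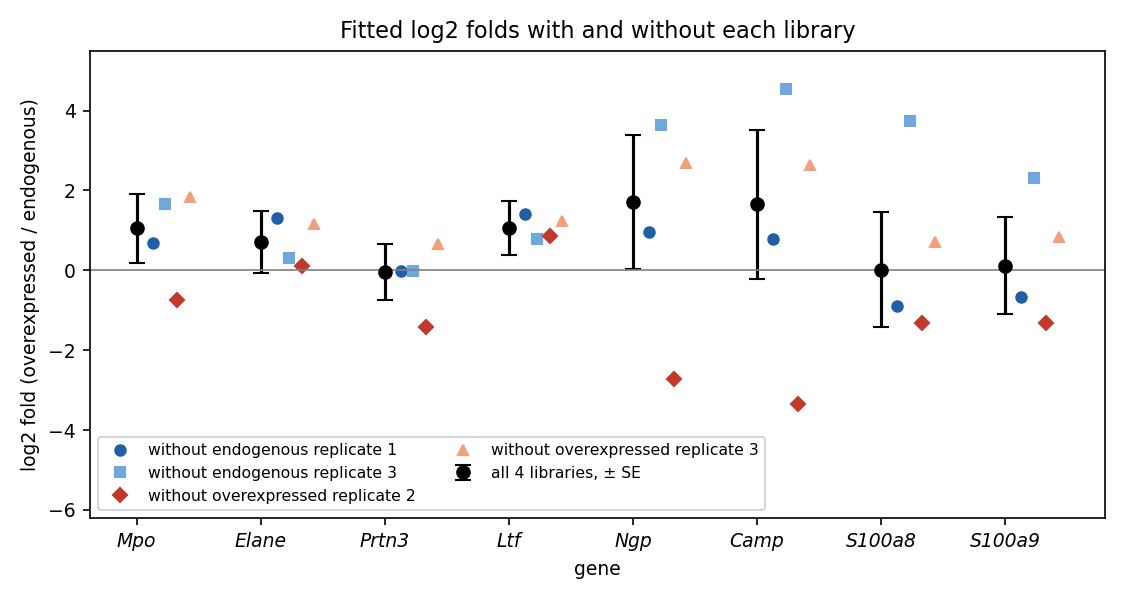
Log2 folds (overexpressed over endogenous) of the 8 tested members. Black points with bars give the fit of all 4 libraries with its SE, and coloured symbols the fit without the library named. Ltf and Elane stayed above 0 in all 4 such fits, and the other 6 changed sign in at least 1.

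Of the 10 members, 8 passed the filter on low counts, and by the edgeR test 0 of these had an adjusted p under 0.05, as did 0% of the 10808 genes tested. At an unadjusted p under 0.05 the count was 0 of 8, against 5.24% of all genes. Of the 8, 7 had a log2 fold above 0 (49.6% of all genes), with a median of 0.88 against -0.01 over all genes. Without overexpressed replicate 2 the median of the 8 was -1.33. The median was 0.71 for the 3 tested primary granule genes, 1.65 for the 3 tested secondary granule genes and 0.07 for the S100 genes, and without overexpressed replicate 2 it was -0.74, -2.72 and -1.33. The groups did not overlap for 1 of the 8, Ltf, which was higher with overexpression (15.2% of all genes were higher and 18% lower without overlap), so the share was near the background.

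The likelihood ratio test of edgeR called 0 of the 8 members (0.777% of all genes), and DESeq2 called 0 of the 6 that it gave an adjusted p (3.68% of all 4103 such genes; Ltf had the lowest of the 6, 0.192). Limma-voom called 0 of 8 and 0% of all genes, and its median log2 folds were 0.63 for the primary granule, 0.85 for the secondary granule and 0.81 for the S100 genes, so the medians of the secondary granule and S100 genes lay closer together than in edgeR. With no filter on low counts, edgeR's quasi-likelihood test called 2 members, Ctsg (log2 fold 4.97, adjusted p = 2.14e-05) and Lcn2 (-3.35, adjusted p = 0.000768), against 1.78% of 46089 genes. These were the 2 members that the filter had removed, and each had its counts in 1 library. In the authors' deposited table, whose folds have the opposite sign and were turned here, 8 members were listed, with log2 folds of 1.06 for Ltf, 1.76 for Ngp and 1.70 for Camp. An FDR under 0.05 was given there to 0 of the 8 members (lowest 0.824, in the authors' deposited table) and to 2.37% of all 17039 genes listed. With 2 libraries per group an exact permutation test of a single value cannot go below p = 0.333.

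Every one of the 10 members had its highest CPM in endogenous replicate 3 or overexpressed replicate 2. Over all genes tested, 53.6% did. These 2 libraries were picked with the counts of the members known, so the 10 of 10 is a description and not a test. The 10 include Ctsg and Lcn2, which did not pass the filter, while the 53.6% covers only genes that did. The S100 genes and Lcn2 were highest in endogenous replicate 3, and the other 7 in overexpressed replicate 2. The summed CPM of 10 erythroid genes was 185, 3426, 603 and 213, and that of 10 monocyte and macrophage genes 274, 433, 541 and 236, with the highest library of each list among these 2. Much of the erythroid sum in endogenous replicate 3 lay in Car2, at 30.3, 1470, 16.8 and 182 CPM, and Car1, at 16, 792, 11.2 and 9.83. Klf1 and Alas2 of the same list, with few counts (1, 0, 1 and 3, and 5, 4, 3 and 6), were highest in overexpressed replicate 3. The haemoglobin gene Hbb-bs had 52, 430, 214 and 2 counts and the monocyte gene Ly6c2 12, 107, 116 and 2, while C1qb, a macrophage gene, had 0, 0, 2 and 1. Without Ly6c2 the other monocyte and macrophage genes summed to 253, 279, 325 and 233 CPM, so much of that difference lay in this gene. Csf1r, the receptor of monocytes and macrophages, was highest in overexpressed replicate 3, at 50.8 CPM against 25.9 to 30.3 elsewhere. Of the erythroid genes 10, 9, 9 and 6 had a count, and of the monocyte genes 9, 9, 10 and 9. The 8 T and NK cell genes summed to 96.2, 117, 455 and 93.4 CPM and the 11 stem and progenitor genes to 470, 497, 1360 and 405, both highest in overexpressed replicate 2. Much of this lay in few genes. Of the T and NK cell genes, Nkg7 was at 33.9, 36, 388 and 24.6 CPM. Of the stem and progenitor genes, Fgd5 was at 207, 144, 677 and 162 CPM and Flt3 at 99.8, 53.3, 452 and 54.1. A set of 9 B-lineage genes was highest in endogenous replicate 1, at 866, 310, 461 and 288 CPM. The 9 eosinophil, basophil and mast cell genes were highest there too, at 92.7, 87.8, 70.9 and 85.2 CPM, with 6, 7, 5 and 8 genes with a count and Prg2 at 0 in all 4 libraries. The part of other cell types, or of the low mitochondrial share of overexpressed replicate 3, in the values of the members was not tested.

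The spread within groups split the members. The ratio of the higher to the lower CPM in each group was taken from log2 CPM with a prior count of 2, brought back to the linear scale. Over the 1671 tested genes with a mean count of at least 50, the larger of the 2 within-group ratios had a median of 2.33. Ltf at 1.5 and Elane at 2.05 were below that median. S100a9 at 7.84, S100a8 at 24.2, Ngp at 39.6 and Camp at 54.1 were above it, the last above 97.2% of these genes. Per kb of exon, Ltf stood at 8.93, 11.7, 10.5 and 16.6 times Elane in the 4 libraries, but at 35.7, 3.63, 2.89 and 93.8 times Ngp. The ratio of Ltf to Elane thus varied less over the libraries than that of Ltf to Ngp, a gene of its own granule.

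**Figure D3:**
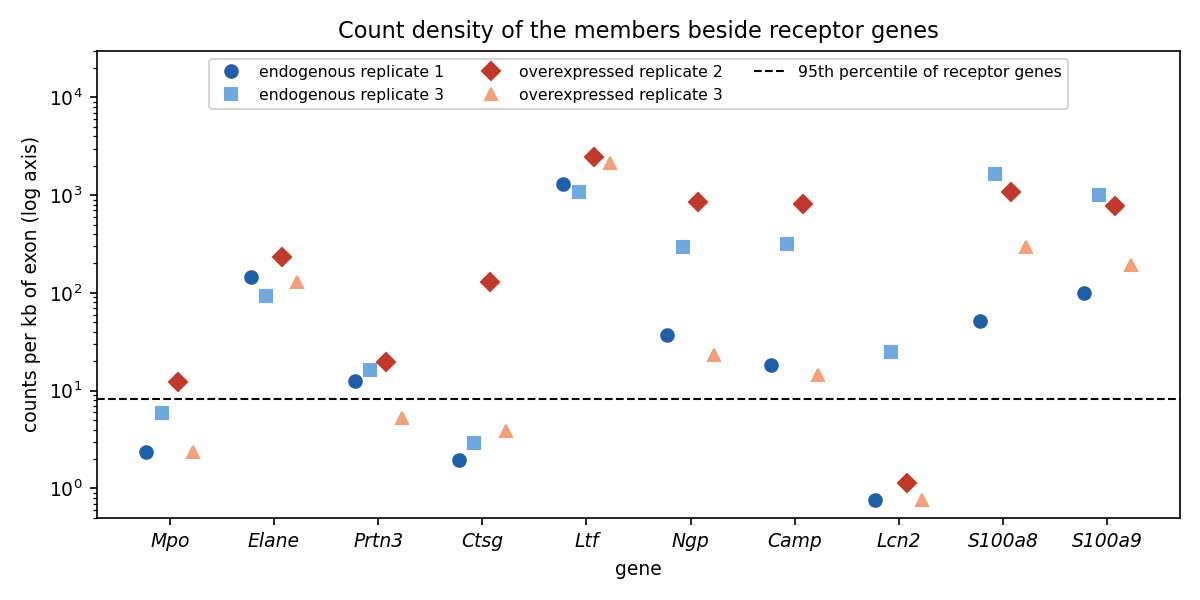
Counts per kb of exon (log axis) of the 10 members by library. The dashed line, at 8.3 counts per kb, is the level that 95% of receptor genes do not exceed in their mean over libraries. Lcn2 and Ctsg lay above it in 1 library each, and Mpo also in 1.

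Compared per length, the members covered a wide range of density. The level that 95% of 1479 odorant, vomeronasal and trace-amine receptor genes do not exceed was 8.3 counts per kb, and these genes should have no role in marrow. Of the 10 members, 8 had a mean density above it, as had 8.26% of all rows. Ltf was at 1315, 1083, 2461 and 2149 counts per kb and Elane at 147, 92.5, 235 and 129. Mpo, at 2.34, 5.84, 12.3 and 2.34, and Lcn2, at 0.762, 24.8, 1.14 and 0.762, had means of 5.7 and 6.86, below that level. Ctsg was above it only through overexpressed replicate 2, with 130 counts per kb there and 1.94 to 3.87 elsewhere. By mean density the order was Ltf (1752), S100a8 (760), S100a9 (515), Ngp (303), Camp (291), Elane (151), Ctsg (34.6), Prtn3 (13.4), Lcn2 and Mpo. Each neighbour in this order overlapped the next across the 4 libraries, and in endogenous replicate 3 S100a8 stood above Ltf.

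**Figure D4:**
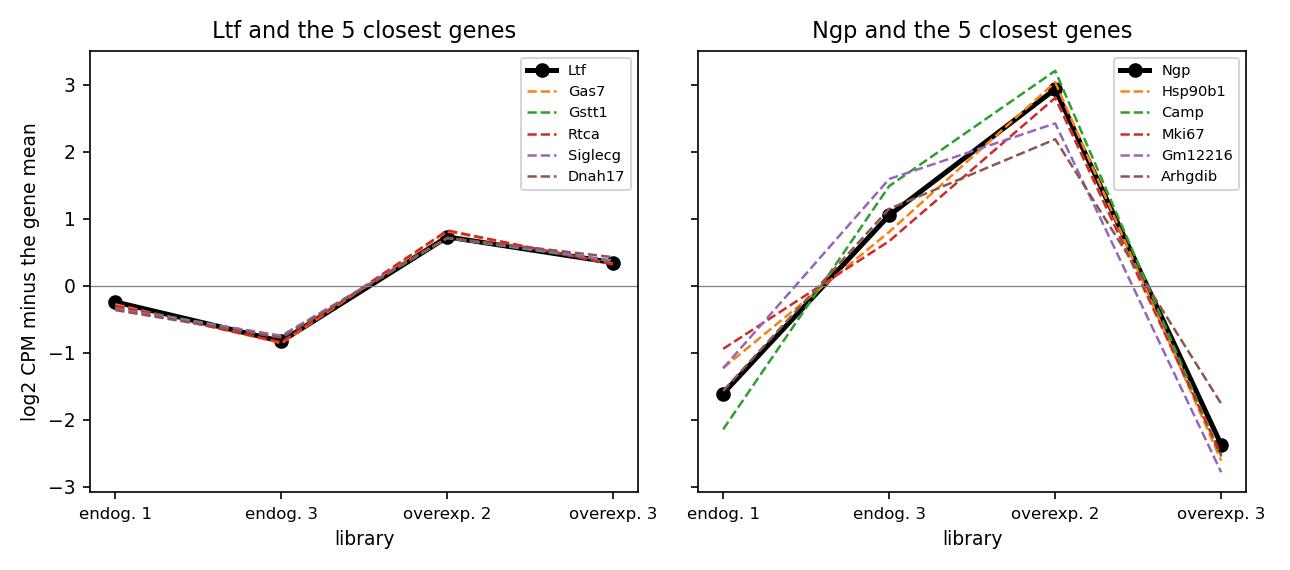
Log2 CPM minus the mean of each gene over the 4 libraries, for Ltf (left) and Ngp (right) with the 5 genes closest to each. Lines only join values of 1 gene. Ltf varied by less than 2 log2 units and Ngp by more than 5.

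The genes closest to a member were found by the root mean square difference of log2 CPM, each gene centred on its mean over the 4 libraries, among tested genes with a mean count of at least 50. Camp was the 2nd closest of 1670 genes to Ngp, at 0.38, after the endoplasmic reticulum chaperone Hsp90b1 at 0.26. The others were the proliferation marker Mki67 (0.40), Gm12216 (0.47) and Arhgdib (0.49). Hsp90b1 had 15, 83, 308 and 5 counts and Mki67 12, 50, 176 and 3. Only 6 genes lay within 0.5 of Ngp, against 433 for Ltf and 386 for Elane. The distance was not scaled by the spread of a gene, so a gene that varies little can have many genes close to it.

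The 5 genes closest to Ltf were Gas7 (0.05), the glutathione transferase Gstt1 (0.05), the RNA cyclase Rtca (0.06), the B-cell lectin Siglecg (0.07) and the axonemal dynein Dnah17 (0.08). Gas7 had 1776, 1471, 3610 and 2939 counts and Siglecg 739, 692, 1472 and 1326. None of the 9 other members was among these 5. Between members, Elane was closest to Ltf (0.33), Ngp to Camp (0.38) and S100a8 to S100a9 (0.66), while Ltf and Camp were the farthest apart (2.42) of the 28 pairs of tested members. Over 4 libraries such distances are descriptions.

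**Figure D5:**
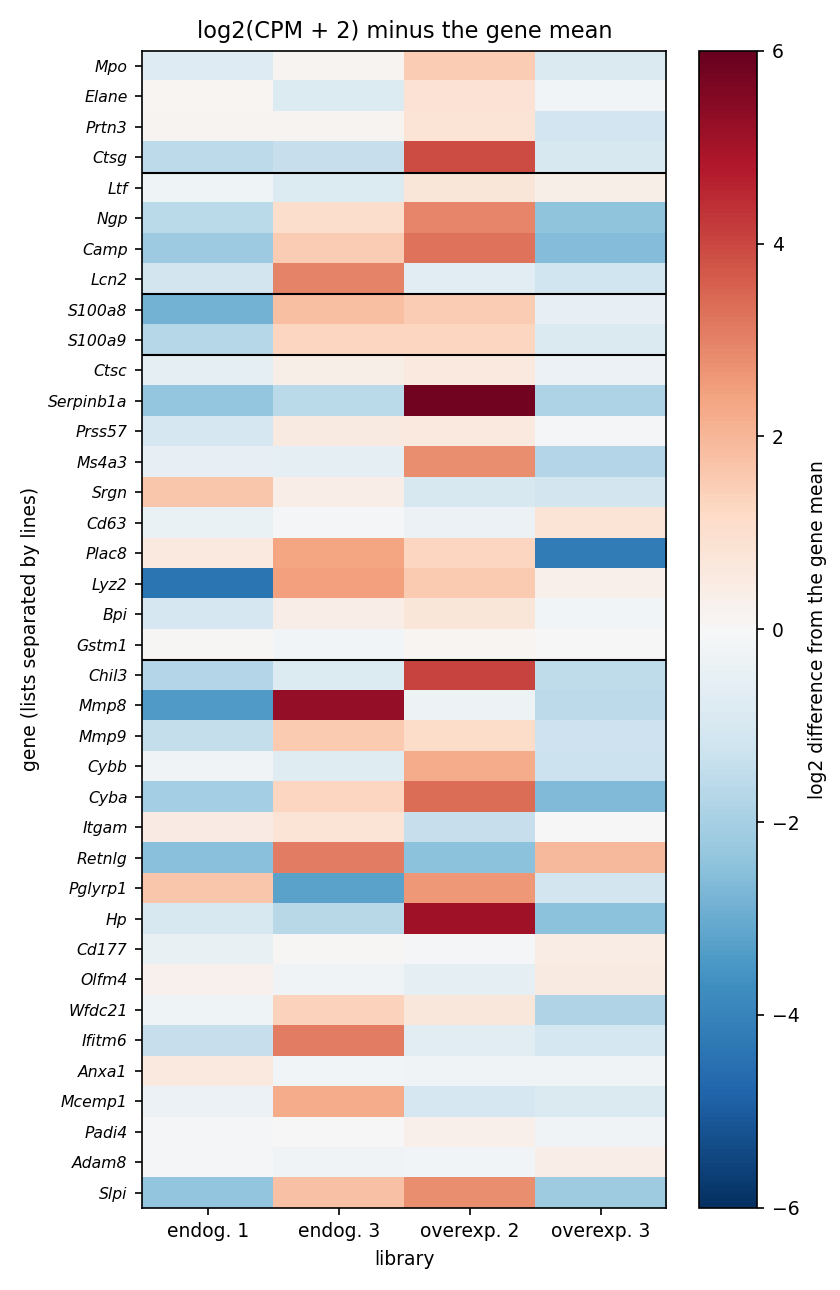
Log2(CPM + 2) minus the mean of the gene, for the 10 members and 28 other granule genes (rows) in the 4 libraries (columns). Red is above and blue below the mean of the gene. The deepest red lies in endogenous replicate 3 (Mmp8) and overexpressed replicate 2 (Serpinb1a, Hp, Chil3).

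Some other granule genes also had most of their counts in 1 library, while others, such as Adam8 with 32, 36, 29 and 49 and Gstm1 with 4 in each, both chosen with their counts known, were spread over all 4. Gstm1 did not pass the filter on low counts. The receptor genes had 2.87, 3.77, 2.56 and 3.42 counts per kb of exon, so few counts in every library are no sign of expression. Adam8 and Gstm1 were not compared with that level. Of 10 other primary granule and promyelocyte genes, 8 had their highest CPM in endogenous replicate 3 or overexpressed replicate 2, and of 18 other secondary and tertiary granule genes 14, against 53.6% of all genes tested. Both lists include genes that did not pass the filter, which the 53.6% leaves out, and the libraries were picked with the members' counts known. Of the first list 4 were tested and 0 passed by edgeR, with 1 log2 fold above and 3 below 0 (median -0.93). Srgn, the proteoglycan that packs granule proteases, had 45, 22, 6 and 6 counts (log2 fold -2.38 ± 0.61, edgeR adjusted p = 0.845), Plac8 55, 239, 87 and 1, the granule protease activator Ctsc 7, 18, 16 and 9, and the lysozyme gene Lyz2, the fourth tested, 0, 159, 65 and 30. Srgn was thus higher in both endogenous libraries, and the other 3 overlapped. The serpin Serpinb1a, which inhibits the granule proteases and was not tested, had 1, 3, 571 and 2 counts, in the same library as those of Ctsg. With no filter on low counts edgeR called 3 of these 10 genes, Serpinb1a, Ms4a3 and Srgn (adjusted p = 0.0339 for Srgn), against 1.78% of 46089 genes. Ms4a3 had 6, 7, 64 and 2 counts, most of them in overexpressed replicate 2, and was called in the authors' deposited table (log2 fold 2.54, FDR = 0.0351).

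Of the 18 other secondary and tertiary granule genes 10 were tested and 0 passed by edgeR, with 7 log2 folds above and 3 below 0 (median 0.65). The chitinase-like gene Chil3 had 10, 25, 588 and 13 counts (log2 fold 4.36 ± 1.75, edgeR adjusted p = 0.845, DESeq2 adjusted p = 0.0335). The collagenase Mmp8 had 1, 1048, 16 and 7 (-5.18 ± 2.39, edgeR adjusted p = 0.845). With no filter on low counts edgeR called 5 of the 18, Chil3 (adjusted p = 0.00365), Mmp8 (0.00103), Hp, Ifitm6 and Mcemp1, against 1.78% of 46089 genes. Ifitm6 had 2, 82, 4 and 3 counts and Mcemp1 7, 60, 4 and 5, most of them in endogenous replicate 3. Chil3 and Mmp8, of the same list, thus had their counts in different libraries of different groups. The oxidase subunit Cybb had 80, 70, 421 and 41 counts. The haptoglobin gene Hp, chosen with its counts known, had 2, 1, 200 and 0 counts, and Retnlg, a resistin-like gene of mature neutrophils chosen likewise, 2, 186, 2 and 73. In the authors' deposited table Chil3 (log2 fold 4.38, FDR = 0.0221), Mmp8 (-5.13, FDR = 0.00803) and Mcemp1 (-2.60, FDR = 0.0242) were among the called genes. An FDR under 0.05 was given there to 2.37% of all 17039 genes listed.

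Regulators of granulocyte formation had few counts. Of 14 listed, 6 were tested, with 3 log2 folds above and 3 below 0 (median 0.04), and 0 passed by edgeR. Cebpe, the factor known for driving secondary granule genes, had 2, 0, 1 and 0 counts, and Cebpa, which acts earlier, 1, 0, 8 and 0. Gfi1, a repressor needed for neutrophil formation, had 1, 2, 7 and 0. Cebpb had 1, 17, 40 and 6 counts (log2 fold 1.59 ± 1.17), Irf8, which favours monocytes, 4, 25, 60 and 7 (1.47 ± 1.14) and Runx1 10, 29, 10 and 10 (-0.78 ± 0.53), with edgeR adjusted p from 0.881 to 0.898. Cebpb and Irf8 were highest in overexpressed replicate 2 and next in endogenous replicate 3. The receptor Csf3r for G-CSF had 29, 33, 28 and 37 counts and Cebpd 23, 30, 12 and 34, without such a difference between libraries.

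Of 6 other S100 genes 3 were tested, all with a log2 fold above 0, and 0 passed by edgeR. S100a13 had 0, 3, 179 and 22 counts (log2 fold 6.20 ± 1.59, edgeR adjusted p = 0.845), and the likelihood ratio test of edgeR called it (adjusted p = 0.016). With no filter edgeR's quasi-likelihood test called S100a13 (adjusted p = 2.61e-06) and S100a1, 2 of the 6, against 1.78% of 46089 genes. The authors' deposited table also called S100a13 (log2 fold 6.23, FDR = 0.000337). For S100a13 both overexpressed libraries were above both endogenous ones, most of all replicate 2. S100a1 had 3, 0, 53 and 1 counts, nearly all in overexpressed replicate 2, and its groups overlapped. S100a6 had 1, 27, 40 and 3 counts and S100a11 0, 20, 25 and 3, both high in endogenous replicate 3 and overexpressed replicate 2 as Ngp and Camp were. The neutrophil pair S100a8 and S100a9 differed from S100a13 in that its groups overlapped, and the difference between these genes was not tested.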

How the data were processed

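RNA from 2000 sorted cells per library was made into cDNA libraries with a low-input kit, per the labels' protocols. FastQC 0.11.8, STAR, edgeR 3.24.3 and mm10 are named in the submitters' processing notes, and neither the counter nor its annotation and strand setting is given. The deposited counts are whole numbers and not normalized. The deposited table of the authors holds a log2 fold and a mean log2 CPM per gene, with a likelihood ratio and a signed score, a p-value and an FDR, per its headers. The sign of these folds was read from the counts. All 55450 gene identifiers matched GENCODE vM21. Genes were filtered by filterByExpr, scaled by TMM and fitted with edgeR 4.0.16 (R 4.3.3) by the quasi-likelihood F test with the dispersions of earlier edgeR versions, Benjamini-Hochberg adjusted over all tested genes (threshold 0.05). DESeq2 1.42.0 and limma 3.58.1 were alternatives. The fits were tested on simulated data, but the outcome is not given here and lends the results no support. Each SE was derived from the fold and its F statistic. Densities use the union of annotated exons. The members and lists were chosen with earlier results of these data known. Named genes were the members, the 3 tested genes of each wider list with the smallest p and the 2 with the most counts, and the 5 genes closest to Ltf and to Ngp. Lyz2, Hp, Retnlg, Ms4a3, Ifitm6, Mcemp1, S100a1, Adam8, Gstm1, Cebpe, Cebpa, Gfi1 and the marker genes were chosen with their values known. Some items are not reported here.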

Additional observations from a re-analysis of the deposited data

How the results depend on the processing

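The edgeR test called 0 of the 8 tested members in the fit of all 4 libraries, with median-ratio factors, with library totals, with a likelihood ratio test, and without any 1 library; with no filter it called 2. Over all genes it called 0, against 84 by the likelihood ratio test, 151 by DESeq2 and 822 with no filter. Without 1 library, called members and called genes were 0 in each fit, in which the lone library of a group is assumed to vary like the other group. The log2 folds then ran from -0.74 to 1.84 for Mpo, from -1.42 to 0.67 for Prtn3, from -2.72 to 3.63 for Ngp, from -3.36 to 4.54 for Camp, from -1.33 to 3.74 for S100a8 and from -1.33 to 2.30 for S100a9, and stayed above 0 for Elane (0.10 to 1.32) and Ltf (0.79 to 1.41). The median ran from -0.74 to 1.15 for primary granule, from -2.72 to 3.63 for secondary granule and from -1.33 to 3.02 for S100 genes, and from -1.33 to 1.98 over the 8. With library totals only, the median of all genes was -0.29, S100a8 was at -0.47 and S100a9 at -0.35; relative to that median they were -0.18 and -0.06, with Ltf at 1.07; the cause was not tested. No paired analysis was possible because the analysed libraries share only replicate number 3. Limma-voom gave S100a8 1.14 and Ngp 0.65. Few counts limit Mpo, Prtn3, Ctsg and Lcn2.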
